A study of Mus musculus with 12 samples.

Results

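The phosphodiesterase of rod photoreceptors, PDE6, was examined through the genes of its 4 subunits, Pde6a, Pde6b, Pde6g and Pde6d. The genes were found by symbol in the gene table, and all 4 were among its 32867 genes. In the circRNA table, 9 of the 12510 circular RNAs were assigned to them, 4 to Pde6a and 5 to Pde6b, while none was listed for Pde6g or Pde6d. Retinal RNA was sequenced in 4 groups of 3 samples, which were C3H mice with wild-type Pde6b and Prph2, Pde6b rd1 mice of postnatal day 13, Pde6b rd10 mice of day 23, and Prph rd2 mice of day 29. The 3 C3H samples were labelled day 13, day 23 and day 29, 1 sample per day, and each model was compared with all 3. Each model was taken at the peak of its photoreceptor death.

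The groups limit what can be read from them. Pde6b rd1 carries a viral insertion and a nonsense mutation in Pde6b, Pde6b rd10 a missense mutation in the same gene, and Prph rd2 a mutation in Prph2, a structural protein of the outer segment disc rim, and in no phosphodiesterase gene. According to the study's methods, Pde6b rd1 and Prph rd2 were kept on the C3H background and Pde6b rd10 on C57Bl6/J. The labels, in contrast, give C57BL6/J for Prph rd2. For Pde6b rd10 the mutation, the background and the age thus cannot be told apart. The Pde6b rd1 samples and the Prph rd2 samples were also each of a single day, while the labelled days of the C3H samples differ. Age was therefore not fully separated from the mutation in these models either, and the background of Prph rd2 remains uncertain. The mice were used irrespective of sex, and Xist, the non-coding RNA of the inactive X chromosome, was 0.0209 to 0.0281 FPKM in C3H, 212 to 223 in Pde6b rd1, 86.6 to 109 in Prph rd2 and 40.0 to 45.0 in Pde6b rd10. This sex marker thus moved with the group, so that sex and genotype cannot be told apart, and the part of sex in the differences between groups was not tested. The study calls the samples of a group biological replicates, while neither its methods nor the labels tie each sample to an animal, so p-values measure the spread between these samples only.

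In rods, absorbed light leads to the switching on of transducin, which frees PDE6 from its inhibition, and PDE6 then breaks down cGMP, so that the cGMP-gated channels of the outer segment close. Pde6a and Pde6b encode the catalytic subunits alpha and beta, which pair as a heterodimer, Pde6g encodes the inhibitory gamma subunit, and Pde6d encodes delta, a prenyl-binding protein that solubilizes lipid-anchored proteins, PDE6 among them, for their transport to the outer segment. Without a working beta subunit cGMP builds up in rods, and this is the known start of the degeneration in Pde6b rd1 and Pde6b rd10. A heterodimer needs both catalytic subunits, which is why the ratios between the subunit genes within a sample were examined beside their levels.

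The gene counts of a sample summed to between 17049495 and 24755890 reads. The markers of rods were present in every group, with the summed FPKM of Gnat1, Cnga1, Nrl and Nr2e3 at 1499 to 1565 in C3H, 694 to 709 in Pde6b rd1, 1106 to 1214 in Prph rd2 and 1257 to 1337 in Pde6b rd10. The marker lists of other retinal cell types were detected in all groups as well. The 8 microglia markers summed to between 78.9 and 89.3 FPKM in Pde6b rd10, against 20.2 to 25.2 in the other groups, and the 8 Mueller glia markers to between 546 and 557 FPKM in Pde6b rd1, against 900.5 to 1070 elsewhere. The Mueller glia markers did not move as one. In Pde6b rd1, 4 of the 8 fell 1.5-fold or more at an unadjusted p under 0.05 (edgeR), against 6.03% of all genes. Glul fell most, with a log2 fold change of −1.54. By the same rule 1 rose, Crym, at 0.82, against 8.98% of all genes. In whole retina, fewer rods and less RNA per rod cannot be told apart. The biological coefficient of variation was 3.09% among the C3H samples, although their labelled days differ, 3.34% in Pde6b rd1, 7.51% in Prph rd2 and 4.99% in Pde6b rd10.

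The catalytic alpha subunit gene Pde6a (ENSMUSG00000024575, GRCm38 chr18:61220315-61289924, plus strand, 22 exons) was at 300.3, 295 and 293 FPKM in the C3H samples of days 13, 23 and 29. FPKM divides the reads of a gene by its length, here 4521 bases, and by the reads counted on all genes. The Pde6b rd1 samples had 134, 131 and 135 FPKM, the Pde6b rd10 samples 307, 311 and 309 FPKM, and the Prph rd2 samples 281, 272 and 271 FPKM. Pde6a was thus clearly lower in Pde6b rd1, the 3 Pde6b rd10 samples lay slightly above all C3H samples and the 3 Prph rd2 samples slightly below them, with no overlap between groups on this scale. Relative to the C3H mean of 296 ± 3.98 FPKM (SD, n = 3), the mean was 45.1% in Pde6b rd1, 92.8% in Prph rd2 and 105% in Pde6b rd10. After normalization to the bulk of genes, Pde6a fell in Pde6b rd1, with a log2 fold change of −1.22 (SE 0.03, adjusted p = 5.20e-21, edgeR quasi-likelihood test). In Pde6b rd10 the log2 fold change was 0.01 (95% interval −0.05 to 0.07, adjusted p = 0.816, edgeR), so the FPKM surplus there was not seen on the normalized counts. In Prph rd2 the log2 fold change was −0.14 (SE 0.04, adjusted p = 0.0391, edgeR), and the adjusted p rose to between 0.123 and 0.155 when any 1 of the C3H samples was left out.

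The catalytic beta subunit gene Pde6b (ENSMUSG00000029491, chr5:108388391-108432397, plus strand, 22 exons) is the gene mutated in Pde6b rd1 and Pde6b rd10. It was at 244, 241 and 245 FPKM in C3H. The Pde6b rd1 samples had 57.0, 57.6 and 56.7 FPKM, the Pde6b rd10 samples 169, 174 and 169 FPKM, and the Prph rd2 samples 206, 218 and 206 FPKM. All 3 models were below C3H without overlap, in the order Prph rd2, Pde6b rd10 and Pde6b rd1, and no range of one model touched that of another. The means were 23.5% of C3H in Pde6b rd1, 86.4% in Prph rd2 and 70.1% in Pde6b rd10. The log2 fold change was −2.16 in Pde6b rd1 (SE 0.03, adjusted p = 1.66e-25, edgeR), the second smallest p of all genes tested there. It was −0.57 in Pde6b rd10 (SE 0.03, adjusted p = 3.09e-12, edgeR), just short of a 1.5-fold change, and −0.24 in Prph rd2 (SE 0.04, adjusted p = 0.00101, edgeR). Counts per gene include reads from any part of the transcript, so they do not tell mutant from intact Pde6b transcripts.

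The inhibitory gamma subunit gene Pde6g (ENSMUSG00000025386, chr11:120447605-120453500, minus strand) had the highest level per length of the 4 subunit genes in C3H, at 434, 427 and 454 FPKM, and ranked number 15 of all genes by mean FPKM. The Pde6b rd1 samples had 269, 259 and 262 FPKM, the Pde6b rd10 samples 259, 267 and 252 FPKM, and the Prph rd2 samples 304, 335 and 284 FPKM. Pde6g was below C3H in all 9 model samples, with the ranges of Pde6b rd1 and Pde6b rd10 on top of each other and Prph rd2 in between. The means were 60.1% of C3H in Pde6b rd1, 70.2% in Prph rd2 and 59.3% in Pde6b rd10. The log2 fold change was −0.81 in Pde6b rd1 (SE 0.03, adjusted p = 1.36e-16, edgeR). It was again −0.81 in Pde6b rd10 (SE 0.04, adjusted p = 8.82e-14, edgeR), where Pde6g was the single subunit gene to pass both thresholds. In Prph rd2 it was −0.54 (SE 0.05, adjusted p = 1.30e-05, edgeR), short of 1.5-fold with all samples and past it, at −0.60, without Prph rd2 replicate 2, the sample with 335 FPKM.

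Pde6d (ENSMUSG00000026239, chr1:86542994-86582629, minus strand, 5 exons), the prenyl-binding delta subunit gene, was the least abundant per length, with a Pde6d to Pde6a FPKM ratio in C3H of 0.101 ± 0.00293 (SD, n = 3). It was at 29.4, 30.3 and 30.2 FPKM in C3H, and it ranked number 1273 of all genes by mean FPKM. The Pde6b rd1 samples had 23.2, 25.0 and 23.0 FPKM, the Pde6b rd10 samples 23.7, 26.0 and 23.4 FPKM, and the Prph rd2 samples 29.5, 30.9 and 26.0 FPKM. Both Pde6b mutants lay below C3H without overlap, whereas Prph rd2 overlapped C3H. The log2 fold change was −0.41 in Pde6b rd1 (SE 0.05, adjusted p = 1.05e-07, edgeR) and −0.35 in Pde6b rd10 (SE 0.05, adjusted p = 9.36e-06, edgeR), both under 1.5-fold. In Prph rd2 it was −0.09 (95% interval −0.23 to 0.04, adjusted p = 0.417, edgeR).

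**Figure D1:**
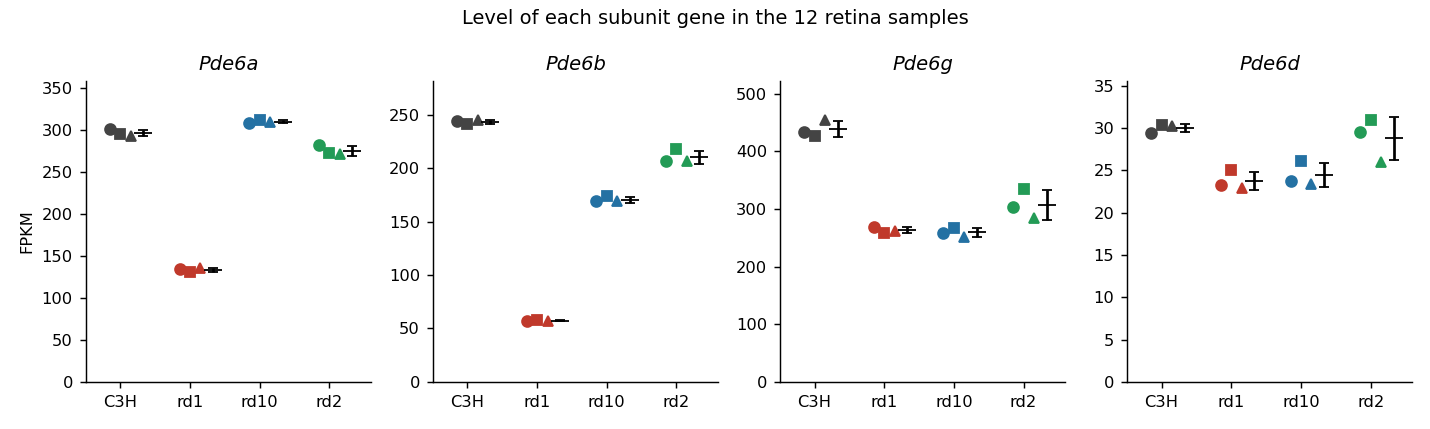
FPKM of the 4 subunit genes (y axis, from 0, a separate scale for each gene) in the 12 samples by group (x axis), with circles, squares and triangles for replicates 1, 2 and 3 and a black bar for the mean and SD (n = 3). Pde6a is lowest in Pde6b rd1, at 45.1% of C3H, against 92.8% in Prph rd2, Pde6b steps down from C3H over Prph rd2 and Pde6b rd10 to Pde6b rd1, Pde6g is below C3H in all 3 models, and Pde6d is at 23.0 to 26.0 FPKM in both Pde6b mutants.

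A gene was called where its unadjusted p was under 0.05 and it changed 1.5-fold or more. By this rule 3 of the 4 subunit genes fell in Pde6b rd1, where 6.03% of all 18310 genes tested were called lower. In Pde6b rd10, 1 of the 4 fell, where 8.08% of 18704 genes were called lower. In Prph rd2, 0 of the 4 were called in edgeR, where 1.89% of 18581 genes were called lower, although 3 of the 4 had an unadjusted p under 0.05, and 0 were called by DESeq2 or limma. At an adjusted p under 0.05 with no demand on the fold, 4, 3 and 3 of the 4 were lower in Pde6b rd1, Pde6b rd10 and Prph rd2, against 21.3%, 26.3% and 5.17% of all genes. In Prph rd2 the third was Pde6a, and 2 of the 4 were left without any 1 of the C3H samples. These comparisons share their C3H samples.

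**Figure D2:**
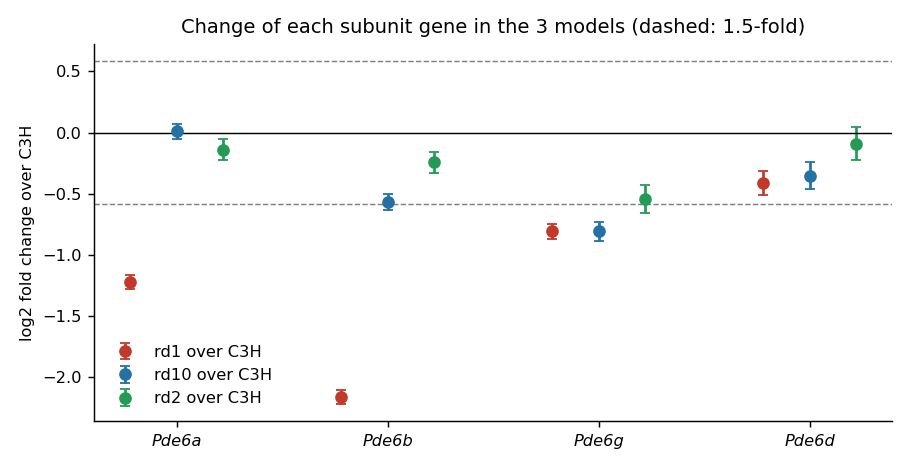
Log2 fold change over C3H (y axis) of each subunit gene (x axis) in the 3 models, with 95% intervals from edgeR as bars and dashed lines at a 1.5-fold change. The order of the genes differs between the models, with Pde6b lowest in Pde6b rd1 at −2.16 and Pde6g lowest in Pde6b rd10 and Prph rd2 at −0.81 and −0.54.

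The models were then compared with each other in 1 fit of all 12 samples. The catalytic genes separated Pde6b rd1 from Pde6b rd10, with Pde6a higher in Pde6b rd10 by 1.26 on the log2 scale (SE 0.03, adjusted p = 3.17e-17, edgeR) and Pde6b by 1.62 (SE 0.03, adjusted p = 1.18e-18, edgeR), where 17.6% of 19616 genes were called higher. Pde6g differed between these 2 mutants by 0.02 (95% interval −0.07 to 0.12, adjusted p = 0.683, edgeR) and Pde6d by 0.09 (95% interval −0.05 to 0.22, adjusted p = 0.258, edgeR). The 2 Pde6b mutants thus differed in their catalytic genes and had inhibitory and delta subunit levels that lay within these intervals of each other. Prph rd2 was above Pde6b rd1 in all 4 genes, by 1.11 for Pde6a (adjusted p = 1.17e-15, edgeR), 1.94 for Pde6b (adjusted p = 9.19e-19, edgeR), 0.29 for Pde6g (adjusted p = 5.91e-05, edgeR) and 0.34 for Pde6d (adjusted p = 1.54e-04, edgeR), where 8.21% of genes were called higher and the first 2 were among them. Against Prph rd2, Pde6b rd10 had more Pde6a, by 0.15 (adjusted p = 6.06e-04, edgeR), and less of the other three. The differences were −0.32 for Pde6b (adjusted p = 8.64e-08, edgeR), −0.26 for Pde6g (adjusted p = 1.14e-04, edgeR) and −0.26 for Pde6d (adjusted p = 0.00166, edgeR), and 0 of the 4 genes were called by edgeR, where 19.7% of all genes were called in either direction.

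The order of the levels therefore differed from gene to gene. For Pde6a, Pde6b rd10 and C3H were not told apart on the normalized counts, and Prph rd2 and then Pde6b rd1 followed. For Pde6b, all neighbours in the order C3H, Prph rd2, Pde6b rd10 and Pde6b rd1 differed beyond their spread. For Pde6g, C3H was followed by Prph rd2 and then by the 2 Pde6b mutants, which were not told apart. For Pde6d, C3H and Prph rd2 were not told apart, and neither were the 2 Pde6b mutants below them.

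The ratio between 2 subunit genes within a sample does not depend on its library size. The Pde6b to Pde6a ratio of FPKM values was 0.822 ± 0.0129 (SD, n = 3) in C3H, with the samples between 0.812 and 0.837. It was 0.428 ± 0.0114 in Pde6b rd1, 0.766 ± 0.0338 in Prph rd2 and 0.551 ± 0.00624 in Pde6b rd10 (SD, n = 3 each). The beta subunit gene was thus lower relative to the alpha subunit gene in all 3 models, least so in Prph rd2, and no group overlapped another. Expressed as a share, Pde6b made up 45.1 ± 0.387% of the summed FPKM of both catalytic genes in C3H, 30.0 ± 0.559% in Pde6b rd1, 43.3 ± 1.08% in Prph rd2 and 35.5 ± 0.259% in Pde6b rd10 (SD, n = 3). The sum itself was 539 FPKM in C3H, and 35.3% of this in Pde6b rd1, 89.9% in Prph rd2 and 89.0% in Pde6b rd10. In FPKM, Pde6b rd10 and Prph rd2 therefore had like sums with different shares of Pde6b. These sums and shares weigh each gene by the length behind its FPKM.

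Set against the alpha subunit gene, the inhibitory subunit gene lay above C3H in Pde6b rd1 and below it in the other models. The Pde6g to Pde6a ratio was 1.48 ± 0.0605 in C3H, 1.97 ± 0.0370 in Pde6b rd1, 1.12 ± 0.0987 in Prph rd2 and 0.839 ± 0.0226 in Pde6b rd10 (SD, n = 3). In FPKM, Pde6g exceeded Pde6a in every C3H, Pde6b rd1 and Prph rd2 sample. It was below Pde6a in every Pde6b rd10 sample, where the ratio lay between 0.815 and 0.860. The lengths behind FPKM were 4521 bases for Pde6a, 5026 for Pde6b and 2317 for Pde6g. The longest coding transcripts in GENCODE vM21 had 4588, 2799 and 900 bases. Which of 2 genes is higher within a sample thus depends on the length used, while the fold of a ratio between groups does not. The Pde6g to Pde6b ratio was 1.80 ± 0.0458 in C3H, 4.61 ± 0.112 in Pde6b rd1, 1.46 ± 0.0835 in Prph rd2 and 1.52 ± 0.0263 in Pde6b rd10 (SD, n = 3). Against beta, the gamma subunit gene was thus higher than in C3H in Pde6b rd1 and slightly lower in the other models. The Pde6d to Pde6g ratio was 0.0685 ± 0.00226 in C3H and higher in the 3 models, at 0.0902 ± 0.00553 in Pde6b rd1, 0.0936 ± 0.00291 in Prph rd2 and 0.0940 ± 0.00303 in Pde6b rd10 (SD, n = 3).

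The 4 groups differed in all 6 ratios by an exact permutation test over the 369600 ways to place 12 samples in 4 groups of 3. The exact p was 6.49e-05 for Pde6b over Pde6a and for Pde6g over Pde6a, the smallest value the design can give (adjusted p = 1.79e-04 over 11 permutation tests). It was 1.95e-04 for Pde6g over Pde6b, 4.55e-04 for Pde6d over Pde6a, 8.44e-04 for Pde6d over Pde6b and 0.00922 for Pde6d over Pde6g (exact permutation tests). A single model against C3H, 3 samples against 3, cannot go below an exact p of 0.10, and each of these 6 ratios in each model reached it (adjusted p = 0.106 over 33 exact tests, which include those over the rod reference) except Pde6d over Pde6a in Prph rd2, where the ranges overlapped (exact permutation p = 0.70).

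**Figure D3:**
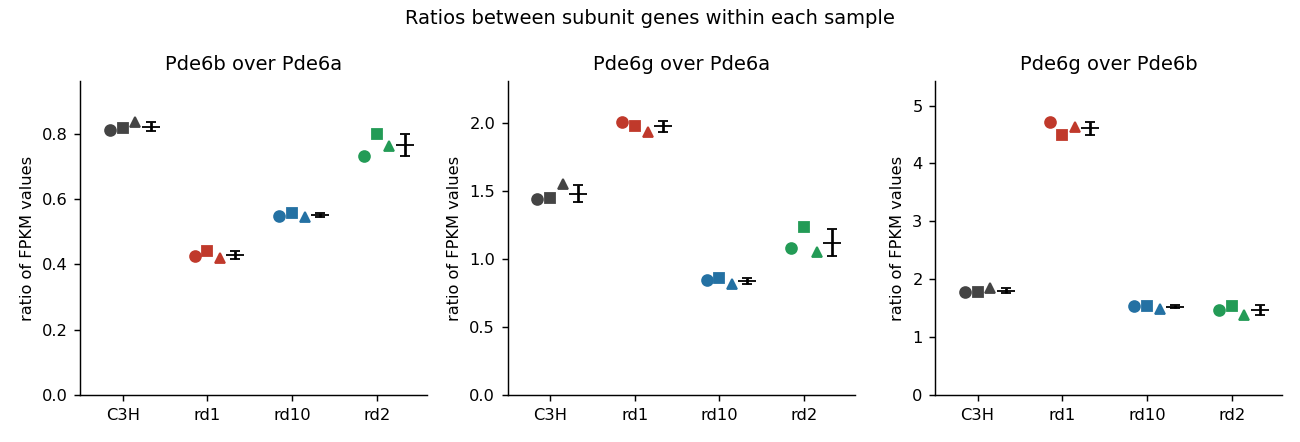
Ratio of FPKM values (y axis, from 0) between subunit genes in the 12 samples by group (x axis), with circles, squares and triangles for replicates 1, 2 and 3 and a black bar for the mean and SD (n = 3). Pde6b over Pde6a falls to 0.428 in Pde6b rd1 and 0.551 in Pde6b rd10, and Pde6g over Pde6a is highest in Pde6b rd1 at 1.97 and lowest in Pde6b rd10 at 0.839.

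To set the subunit genes against other rod transcripts, each was divided by the geometric mean FPKM of 4 rod genes in the same sample, rod transducin alpha (Gnat1), the rod channel subunit Cnga1 and the rod transcription factor genes Nrl and Nr2e3. This rod reference was 0.636 of C3H in Pde6b rd1, 0.732 in Prph rd2 and 0.646 in Pde6b rd10. Relative to it, Pde6a was 0.708 of C3H in Pde6b rd1, 1.27 in Prph rd2 and 1.62 in Pde6b rd10. Pde6b was 0.369 of C3H in Pde6b rd1, 1.18 in Prph rd2 and 1.08 in Pde6b rd10, with no overlap with C3H. Pde6g was 0.944 in Pde6b rd1, 0.957 in Prph rd2 and 0.917 in Pde6b rd10, and its range overlapped C3H in Prph rd2. Pde6d was above C3H relative to the reference in all 3 models, at 1.24 in Pde6b rd1, 1.31 in Prph rd2 and 1.26 in Pde6b rd10. In Pde6b rd1 both catalytic genes were thus below C3H relative to the mean of these 4 genes, and Pde6g slightly so. Across the 4 groups, the exact permutation p was 6.49e-05 for Pde6a and for Pde6b, 0.101 for Pde6g and 0.00857 for Pde6d, each over the reference.

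The reference genes did not move as one, which limits these ratios. In Pde6b rd1, Gnat1 had a log2 fold change of −1.96 (adjusted p = 5.44e-25, edgeR), Nrl of −0.53 (adjusted p = 3.31e-13, edgeR), Cnga1 of −0.49 (adjusted p = 1.57e-12, edgeR) and Nr2e3 of 0.08 (adjusted p = 0.0165, edgeR). There Pde6a, at −1.22, was reduced less than Gnat1 and more than the other three, and Pde6b, at −2.16, more than all 4. In Pde6b rd10, Gnat1 was at −0.06 (adjusted p = 0.137, edgeR), whereas Cnga1 was at −0.56 (adjusted p = 1.16e-10, edgeR). Pde6b in Pde6b rd10, at −0.57, was thus reduced more than Gnat1, about as much as Cnga1 and less than Nrl, at −0.87 (adjusted p = 1.07e-13, edgeR), and Nr2e3, at −1.25 (adjusted p = 1.00e-16, edgeR). Pde6a there, at 0.01, was near Gnat1 and above Cnga1, Nrl and Nr2e3. In Prph rd2, Gnat1 was at −0.37, Cnga1 at −0.23, Nrl at −0.65 and Nr2e3 at −0.67. Pde6b there, at −0.24, was near Cnga1 and above Gnat1, Nrl and Nr2e3, and Pde6a, at −0.14, was above all 4.

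**Figure D4:**
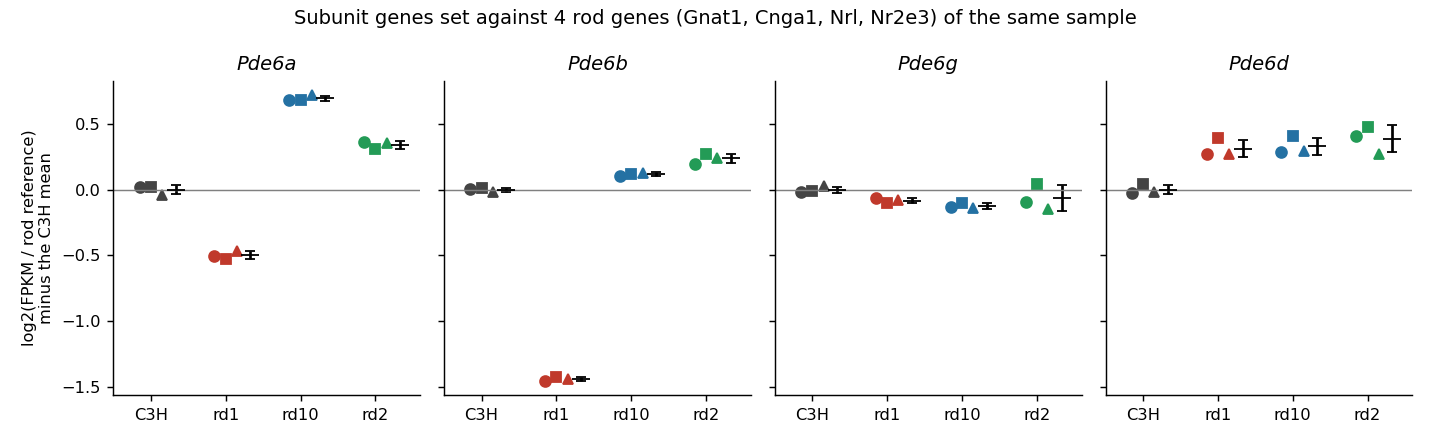
Log2 of each subunit gene's FPKM over the geometric mean FPKM of 4 rod genes, minus the C3H mean (y axis, shared), in the 12 samples by group (x axis), with symbols for replicates and black bars for the mean and SD (n = 3). Pde6b in Pde6b rd1 lies lowest at −1.44, Pde6a is at 0.69 in Pde6b rd10 and 0.34 in Prph rd2, and Pde6g is on average at −0.08, −0.12 and −0.06 in Pde6b rd1, Pde6b rd10 and Prph rd2.

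The cone enzyme uses its own subunits, the catalytic Pde6c and the inhibitory Pde6h. Pde6c was 8.40 to 9.02 FPKM in C3H, 7.05 to 7.65 in Pde6b rd1, 7.56 to 7.99 in Prph rd2 and 30.1 to 31.2 in Pde6b rd10. In Pde6b rd10 both cone genes rose, Pde6c by 1.75 (adjusted p = 1.21e-16, edgeR) and Pde6h by 2.39 on the log2 scale (adjusted p = 1.94e-18, edgeR), where 15.9% of genes were called higher. In Pde6b rd1 Pde6h fell, with a log2 fold change of −1.50 (adjusted p = 1.02e-11, edgeR), and Pde6c was at −0.34 (adjusted p = 1.72e-04, edgeR). In Prph rd2 neither was called by edgeR, with Pde6h at 0.42 (adjusted p = 0.00382, edgeR). The summed FPKM of the 8 cone markers was 428 to 440 in Pde6b rd10, 308 to 317 in C3H, 277 to 282 in Pde6b rd1 and 319 to 328 in Prph rd2, and its part in these differences was not tested.

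The 19 genes that act with PDE6 in the rod cGMP pathway, from transducin to the channel, the exchanger and the guanylate cyclases, were mostly lower in Pde6b rd1. There 12 of the 19 fell and 0 rose, with a median log2 fold change of −0.70 against −0.01 over all genes tested, of which 6.03% were called lower. The largest decreases were those of the cyclase activator genes Guca1b, at −2.74 (adjusted p = 5.44e-25, edgeR), and Guca1a, at −1.98 (adjusted p = 9.65e-18, edgeR), of Gnat1, at −1.96, and of the exchanger gene Slc24a1, at −1.50 (adjusted p = 3.51e-22, edgeR). In Pde6b rd10, 6 of the 19 fell, against 8.08% of all genes, and the median was −0.37, against −0.0025 over all genes. Those with the largest decreases were the arrestin gene Sag, at −0.93 (adjusted p = 2.29e-16, edgeR), the recoverin gene Rcvrn, at −0.92 (adjusted p = 1.59e-14, edgeR), and the transducin gamma gene Gngt1, at −0.88 (adjusted p = 6.81e-10, edgeR), while Guca1a rose by 0.73 (adjusted p = 5.77e-10, edgeR). In Prph rd2, 1 of the 19 fell, Guca1b, at −0.70 (adjusted p = 3.30e-07, edgeR), against 1.89% of all genes, and the median was −0.20, against −0.0012 over all genes.

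Of 18 genes for the folding, lipid anchoring and transport of PDE6, 3 fell and 1 rose in Pde6b rd1 by edgeR, where 6.03% of all genes were called lower and 8.98% higher. In Pde6b rd10 and Prph rd2, 0 of the 18 were called by edgeR, the only tool run on this list, although 8 and 5 were lower at an unadjusted p under 0.05. At an adjusted p under 0.05, 8 and 4 of the 18 were lower, against 26.3% and 5.17% of all genes. The 3 that fell in Pde6b rd1 were Aipl1, the co-chaperone that PDE6 needs for its assembly, at −0.87 (adjusted p = 1.38e-16, edgeR), Arl3, the small GTPase that releases cargo from the delta subunit, at −0.74 (adjusted p = 4.08e-10, edgeR), and Unc119, which carries lipid-anchored transducin, at −0.69 (adjusted p = 1.16e-14, edgeR). Rpgr, a ciliary partner of the delta subunit, rose by 0.65 (adjusted p = 5.50e-11, edgeR). The medians of the list were −0.10, −0.07 and −0.03 in Pde6b rd1, Pde6b rd10 and Prph rd2. In Pde6b rd10, Aipl1 was at −0.13 (adjusted p = 0.0165, edgeR) beside a Pde6b change of −0.57.

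Of 18 genes of other families of cyclic nucleotide phosphodiesterases, 16 were expressed enough to be tested. The single one called in any model by edgeR was Pde3b in Pde6b rd10, higher by 0.78 (adjusted p = 1.96e-08, edgeR). In Pde6b rd1, 6.03% of all genes were called lower and 8.98% higher. In Pde6b rd10 and Prph rd2, 23.9% and 4.57% of all genes were called in either direction. At an adjusted p under 0.05 (edgeR), 4 of the 16 were lower and 4 higher in Pde6b rd1, against 21.3% and 21.9% of all genes. There were 3 lower and 8 higher in Pde6b rd10, against 26.3% and 27.7%, and 2 and 3 in Prph rd2, against 5.17% and 4.53%. The medians of the 16 were −0.05, 0.11 and 0.02 in Pde6b rd1, Pde6b rd10 and Prph rd2.

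**Figure D5:**
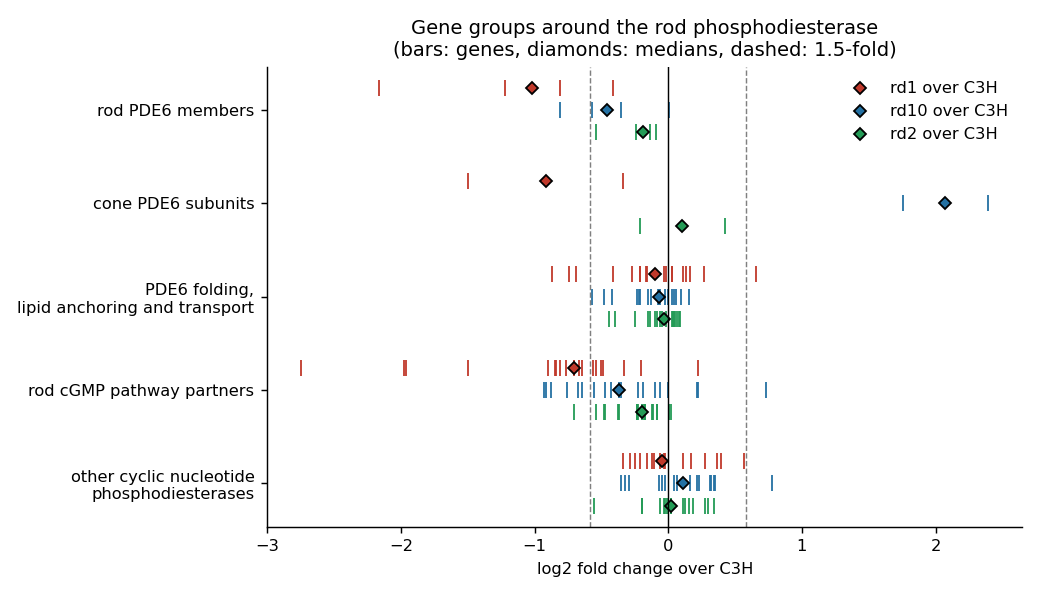
Log2 fold change over C3H (x axis) of the genes of 5 groups (y axis) in Pde6b rd1, Pde6b rd10 and Prph rd2, with a bar for each gene tested, a diamond for the median of the group and dashed lines at a 1.5-fold change. The rod cGMP pathway partners have medians of −0.70, −0.37 and −0.20, the cone subunits lie at 1.75 and 2.39 in Pde6b rd10, and the other phosphodiesterases stay within a 1.5-fold change except Pde3b in Pde6b rd10.

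The genes whose level over the 12 samples was most like that of each subunit gene were listed by Pearson's r of log2 CPM among 14546 genes, as a description, since the points share their groups. For Pde6b they were Slc24a1 (r = 0.999), Grk1, a photoreceptor kinase gene (r = 0.996), Rgs9bp, the anchor of the complex that switches off transducin and PDE6 (r = 0.995), Pdzph1 (r = 0.989) and Adipor1 (r = 0.989). For Pde6a they were Stk35 (r = 0.998) and the Y-linked genes Ddx3y, Kdm5d, Uty and Eif2s3y (r between 0.996 and 0.998). Ddx3y had 0 reads in all Pde6b rd1 samples, 1056 to 1696 in Pde6b rd10, 757 to 907 in Prph rd2 and 1481 to 2005 in C3H, so that it shared with Pde6a the lowest level in Pde6b rd1, where its reads were 0, but not the levels near C3H in Prph rd2. Every sample of Pde6b rd10 and Prph rd2 thus had reads of both Ddx3y and Xist. For Pde6g the list held Mylk (r = 0.988), Ankrd33 (r = 0.987), Klhl18 (r = 0.978), Gnb1, the rod transducin beta gene (r = 0.975), and Ybx3 (r = 0.973). For Pde6d it held Clstn1 (r = 0.978), Tfip11 (r = 0.977), 6530402F18Rik, Tob2 and Fbll1. Among the subunit genes, r was 0.960 between Pde6a and Pde6b and 0.862 between Pde6g and Pde6d, and it was lowest between Pde6a and Pde6g, at 0.478.

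The sequence before the gene start is shown for the mutated gene Pde6b and for Pde6d, which the RefSeq table of promoters on GRCm38.p6 held, 2 of the 4 subunit genes. Each run gives the 250 bases before the RefSeq start, 5′ to 3′ on the strand of the gene, and capitals mark matches to the motifs searched on both strands.
Pde6b, chr5:108388123-108388372, plus strand: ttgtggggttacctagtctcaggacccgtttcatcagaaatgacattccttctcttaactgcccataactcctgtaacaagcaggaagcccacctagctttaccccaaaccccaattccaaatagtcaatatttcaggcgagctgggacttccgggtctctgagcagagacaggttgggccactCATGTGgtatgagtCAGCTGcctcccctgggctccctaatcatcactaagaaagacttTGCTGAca
Pde6d, chr1:86582786-86583035, minus strand: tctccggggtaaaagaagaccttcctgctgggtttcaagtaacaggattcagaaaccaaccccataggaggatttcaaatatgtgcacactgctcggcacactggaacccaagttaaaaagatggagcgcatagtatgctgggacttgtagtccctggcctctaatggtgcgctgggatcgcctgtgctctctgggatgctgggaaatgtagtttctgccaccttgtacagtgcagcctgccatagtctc
The Pde6b window held 2 E-boxes (CANNTG), at −66 to −61 and −52 to −47 from the start, and TGCTGA, a core of sites of the rod factor NRL, at −8 to −3. The Pde6d window held none of the motifs searched, which were these 2, the CRX-type core TAATCC and the GC box GGGCGG. Of all 32851 windows, 66.2% held an E-box, 16.1% TGCTGA, 6.25% TAATCC and 32.7% GGGCGG.

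Neighbouring genes were examined to see whether the changes of the subunit genes were shared along the chromosome. Within 200 kb of the start of Pde6b lie 7 protein-coding genes, of which 6 were tested. In Pde6b rd1, Cplx1 fell, at −0.68 (adjusted p = 3.92e-11, edgeR), and Pcgf3 rose, at 0.63 (adjusted p = 1.33e-11, edgeR), beside −2.16 for Pde6b. There 6.03% of all genes were called lower and 8.98% higher. In Pde6b rd10 and Prph rd2 0 of the 6 were called by edgeR, where 23.9% and 4.57% of all genes were called in either direction. Of the 6, 4 and 1 had an unadjusted p under 0.05 there, with log2 fold changes between −0.35 and 0.20. Around Pde6g, 3 of 21 neighbours tested fell in Pde6b rd1, Fscn2, a photoreceptor fascin gene, at −1.72, Tspan10 at −0.77 and Myadml2 at −0.64, where 6.03% of all genes were called lower. In Prph rd2, 1 of these 21 fell, Fscn2 at −1.06 (adjusted p = 5.15e-08, edgeR), where 1.89% of all genes were called lower. In Pde6b rd10 1 fell, Tspan10 at −0.68 (adjusted p = 0.0254, edgeR), where 8.08% of all genes were called lower, while Fscn2 was at −0.45 there (adjusted p = 7.40e-07, edgeR). Pde6g itself was at −0.81, −0.81 and −0.54 in Pde6b rd1, Pde6b rd10 and Prph rd2. Of 5 neighbours of Pde6a tested, Ppargc1b fell in Pde6b rd1, at −0.65 (adjusted p = 3.30e-11, edgeR), and in Pde6b rd10, at −0.96 (adjusted p = 2.07e-12, edgeR). Csf1r, one of the microglia markers, rose by 1.54 in Pde6b rd10 (adjusted p = 1.70e-14, edgeR), where 15.9% of all genes were called higher. Of 3 neighbours of Pde6d tested, 0 were called by edgeR in any model. In Pde6b rd1 all 3 had an unadjusted p under 0.05, at 0.18 to 0.29, beside −0.41 for Pde6d. A pseudogene on the opposite strand inside Pde6a, Rps2-ps10, had 19 to 22 reads in Pde6b rd10 and between 1063 and 1603 in the other samples, and whether reads were counted by strand is not given in the sources used here. Pde6a itself had 10070 to 13213 reads in Pde6b rd1 and 26207 to 34412 in the other groups.

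CircRNAs form when a downstream splice donor joins an upstream acceptor, and their reads cross this back-splice junction. Between 9819 and 25009 junction reads were counted per sample over all circRNAs, so single junctions rest on few reads. Junctions of Pde6b were read 2 times in all C3H samples, 0 times in Pde6b rd1, 2 times in Pde6b rd10 and 16 times in Prph rd2. By sample the Prph rd2 reads were 5, 3 and 8, and in C3H 0, 2 and 0. The 3 exonic junctions of Pde6b, which carry 15 reads and came almost wholly from Prph rd2, are shown with the last 15 bases of the donor exon in lower case and the first 15 of the acceptor exon in capitals (GRCm38.p6, plus strand).
Exons 4 to 8, chr5:108419470-108421535: atgttcaactttcagGTGCTCCTCTGGTCA
Exons 5 to 9, chr5:108419698-108423157: gaagtccttatggagGAGTTCTTTGATGTG
Exons 9 to 20, chr5:108423008-108429189: actttcgtatacaagGAGGGGCCCCTGGAT
The junction of exons 4 to 8 had 8 reads, all in Prph rd2 replicate 3, that of exons 5 to 9 had 3 in Prph rd2 replicate 2 and 1 in Pde6b rd10 replicate 1, and that of exons 9 to 20 had 3 in Prph rd2 replicate 1. No exonic junction was thus read in 2 Prph rd2 samples. The other 2 Pde6b circRNAs spanned the whole introns 9 and 10, with 3 and 2 reads. The 0 reads in the Pde6b rd1 samples allow up to 3 reads each, or 200.5 to 306 TPM of junction reads, a limit of the same order as the 3 to 8 reads of the Prph rd2 samples.

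The most frequent subunit circRNA joined exon 21 of Pde6a back to exon 14 (chr18:61262416-61286060, exons numbered from the first exon of the longest coding transcript in GENCODE vM21). It was read 9, 11 and 3 times in C3H, 4, 2 and 2 times in Pde6b rd1, 15, 8 and 15 times in Pde6b rd10, and 10, 11 and 5 times in Prph rd2. It was thus found in all 12 samples, with 95 reads in total, and the samples under 5 reads were all 3 of Pde6b rd1 and 1 of C3H. The log2 fold change was −1.08 in Pde6b rd1 (SE 0.70, adjusted p = 0.870, edgeR), 0.51 in Pde6b rd10 (SE 0.45, adjusted p = 0.799, edgeR) and 0.13 in Prph rd2 (SE 0.53, adjusted p = 0.997, edgeR). Of the other Pde6a circRNAs, those of exons 14 to 17 and 14 to 18 shared this acceptor at exon 14 and had 20 and 15 reads, and that of exons 2 to 4 had 3. Taken per 10000 linear gene reads, Pde6a junction reads came to 4.19 ± 2.08 in C3H, 2.77 ± 0.920 in Pde6b rd1, 4.38 ± 0.725 in Prph rd2 and 5.35 ± 1.87 in Pde6b rd10 (SD, n = 3), and the 4 groups were not told apart (exact permutation p = 0.276). Of the 9 subunit circRNAs, 1, 2 and 3 had enough reads to be tested in Pde6b rd1, Pde6b rd10 and Prph rd2, all of Pde6a, and 0 had an unadjusted p under 0.05 by edgeR or limma, where 6.37%, 11.8% and 3.44% of all circRNAs tested were called.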

How the data were processed

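Gene counts, FPKM values and circRNA junction counts of 12 retina samples were used. For the deposited gene counts, the authors aligned reads to GRCm38 (HISAT2 per the labels) and ran HTSeq v0.11.2 on them; the counts are not normalized. For the deposited FPKM values, these counts were scaled to gene length and to the total over all genes. The deposited circRNA counts are back-splice junction reads from TopHat2 v2.1.1 and CIRCexplorer, with candidates under 2 reads discarded, and the circRNA TPM values that the authors made from them carry no length term. The depth was 17049495 to 24755890 reads on genes, and floors (3 counts) cover counting error only, while the intervals of fold changes include the spread between samples.

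Each model was compared with C3H by the edgeR 4.0.16 quasi-likelihood test (R 4.3.3) with TMM normalization and its filter on low counts, and the models with each other in a fit of all 12 samples. The study used DESeq2 at an unadjusted p under 0.05 and 1.5-fold (circRNAs limma, 2-fold), and these thresholds were kept. Adjusted p-values are Benjamini-Hochberg over all genes or circRNAs tested. CircRNAs needed 2 reads in 3 of the 6 samples compared. FPKM ratios were tested by exact permutation, two-sided for each model against C3H and by the between-group sum of squares over the 4 groups. DESeq2 1.42.0, limma 3.58.1 with 1 or 0.1 added to FPKM, other size factors, no filter, the C3H sample of the same day, a replicate block and the omission of each replicate were the alternatives. The fits were tested on simulated data. Python 3.11.15 and matplotlib 3.10.9 made the other tables and the figures. Genes named are the 4 subunit genes, at most 4 called genes per list and comparison, the 5 genes most alike in pattern, and neighbours within 200 kb. A few named beyond this rule (the reference genes, Aipl1 in Pde6b rd10, Rps2-ps10) were chosen after their values were seen. A gene of the rod lists is not reported here, and these lists and the rod reference were computed without it. The subunit genes and all lists were chosen with earlier results of these data known. Positions are from GENCODE vM21.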

Additional observations from a re-analysis of the deposited data

Results flagged for a closer look

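The change of the catalytic genes over C3H differed between the models by a contrast in the fit of all 12 samples. Between Pde6b rd10 and Pde6b rd1 the difference of the log2 fold changes was 1.26 for Pde6a and 1.62 for Pde6b, and all 3 Pde6b rd10 samples were above all 3 Pde6b rd1 samples in FPKM for both. Between Prph rd2 and Pde6b rd1 it was 1.11 for Pde6a and 1.94 for Pde6b, again with all 3 samples on one side. The models differ in age and in the sex marker Xist as well as in genotype, and these cannot be told apart. Groups of 3 samples were not tested for single samples that stand apart.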

How the results depend on the processing

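The log2 fold changes of the 4 subunit genes over C3H kept their direction under every alternative. Their calls by unadjusted p and 1.5-fold changed only for Pde6g in Prph rd2, which passed 1.5-fold against the C3H sample of the same day (−0.61) and without Prph rd2 replicate 2 (−0.60; −0.60 to −0.49 over the omissions). At an adjusted p under 0.05, Pde6a in Prph rd2 (0.0391) was lost without any 1 of the C3H samples (0.123 to 0.155), against the C3H sample of the same day (0.153), with the replicate block (0.148) and by limma (0.227 and 0.228), and its adjusted p was between 0.00558 and 0.228 over all alternatives. The number of genes called was 2749, 4479 and 850 in Pde6b rd1, Pde6b rd10 and Prph rd2, against 1097, 2035 and 166 by limma on log2(FPKM + 1), and 1300 in Prph rd2 with no filter on low counts. Over the omissions of 1 replicate it ranged from 745 to 1435 in Prph rd2, the highest without Prph rd2 replicate 2. Against the C3H sample of the same day, the log2 change of Pde6a over the rod reference was 0.38 in Prph rd2 and that of Pde6d over Pde6g was 0.40 in Pde6b rd10. Why these values moved was not tested.

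Same-numbered samples of a model and C3H deviated together with r between −0.12 and 0.15, and samples of different numbers with r between −0.12 and 0.18. Deviations from a mean of 3 samples are not independent, so these values cannot decide whether the replicate numbers pair the samples. With the replicate number as a block, Pde6b was at −2.16, −0.57 and −0.24 in Pde6b rd1, Pde6b rd10 and Prph rd2 and Pde6g in Prph rd2 at −0.55, and 2774, 4434 and 855 genes were called. The block changed no call of a subunit gene by unadjusted p and 1.5-fold, and of those by adjusted p only that of Pde6a in Prph rd2. The circRNA counts, at most 15 reads per sample and junction, limit what can be seen of subunit circRNAs.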
